A study of Danio rerio with 4 samples.

Results

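Histone H2B forms a dimer with H2A, and 2 such dimers join an H3-H4 tetramer in each nucleosome. The H2B genes are present in many near-identical copies that lie among copies of the other core histones, and most of these genes are transcribed in S phase, when new DNA has to be packed. Their mRNAs end in a stem-loop in place of a poly(A) tail, so they are measured well only in libraries that do not select for poly(A).

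The H2B genes were taken as every gene whose UniProt description in the deposited table begins with Histone H2B, which gave 34 of 24235 genes. 26 were described as Histone H2B, 7 as Histone H2B 1/2 and 1 as Histone H2B 3. They carried 23 different symbols, and 10 separate genes shared the symbol zgc:112234. Genes that share a symbol are named here by their Ensembl identifier.

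RNA-seq was made from whole zebrafish embryos of the 6-somite stage, with a total RNA kit that primes at random positions and so keeps histone mRNA. The wild-type group, of the AB strain, and the mutant group, npas4l bns297/bns297, had 2 libraries each. npas4l encodes a bHLH-PAS factor needed for endothelial and blood cells to form. Embryos of both groups carried no other allele or treatment that the labels name. The labels give neither the strain of the mutants nor the number of embryos or clutches behind a library. The spread between libraries may therefore be technical. P-values given below rest on the spread between these libraries only, taken mostly from genes of similar value. In whole embryos, fewer cells that make a histone mRNA and less of it per cell cannot be told apart. As the strain of the mutants is not given, effects of genetic background could not be separated from the mutation and were not tested.

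The values are gene counts that the authors scaled by library and rounded, called normalised values below. Where 2 pairs of values are joined by against, the first pair is wild-type replicates 1 and 2 and the second is mutant replicates 1 and 2. The values summed to between 7272902 and 8237748 per library, and from whole numbers that the values skip or double, about 7210000 to 9020000 reads per library were counted in genes. Mutant replicate 2 stood apart, with 299 genes at 0 against 2444 to 3000 in the other libraries, and with lower values than mutant replicate 1 in 82.9% of the genes whose mean value reached 200. The main results are therefore also given without it. RNA of npas4l itself was not analysed here. Its known targets tal1, lmo2 and etv2, regulators of blood and vessel precursors, served as a check of the labels, and all 3 fell in mutants (tal1 stood at 166 and 163 against 13 and 8). Markers of 6 embryonic tissues, from notochord (tbxta, listed as ta) to epidermis (tp63), were all present, with mean values between 130.25 and 585.5. Of the 6, 4 were lower in mutants without overlap of the groups. The share was 16.1% of all genes tested and 24.0% of those whose mean value reached 200. The part of these tissues in the H2B results was not tested.

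Summed over all 34 copies, H2B RNA stood at 31956 and 31576 against 28550 and 25939. Both mutant libraries lay below both wild-type libraries. The means were 31766 ± 269 and 27244.5 ± 1846 (SD, n = 2 in each group), a difference of -14.2%, or a log2 ratio of -0.22. The gap between the group means was larger than the difference between the libraries of either group. No p-value is given for a sum over chosen members, and with 2 libraries against 2 an exact two-sided permutation test cannot go below 0.333.

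As a share of all values in the library, which does not depend on the scaling factor, H2B took 0.400% and 0.390% against 0.347% and 0.357%. Here mutant replicate 2 was not the lower of the mutants. The log2 ratio of the sums was -0.15 without mutant replicate 2 and -0.29 without mutant replicate 1.

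The other core histones give the setting for this difference. These families were taken by the whole description, Histone H2A or H2AX, Histone H3 with or without a variant number, and Histone H4. A longer description that only begins with these words was not taken, whereas for H2B it was. H2A (36 genes) summed to 27226 and 27192 against 26947 and 23539. H3 (31 genes) summed to 24842 and 24713 against 24025 and 21370. H4 (33 genes) summed to 17119 and 16730 against 14906 and 13485. The mutant libraries were lower than the wild-type libraries for each family, with log2 ratios of -0.11 for H2A, -0.13 for H3 and -0.25 for H4. H2A was the family closest to wild type in mutant replicate 1.

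Ratios between families within a library are free of the scaling between libraries. The ratio of the H2B sum to the H2A sum was 1.17 and 1.16 against 1.06 and 1.10. The ratio of H2B to H3 was 1.29 and 1.28 against 1.19 and 1.21. Relative to its dimer partner and to H3, H2B was thus lower in both mutant libraries. The ratio of H2B to H4 was 1.87 and 1.89 in wild type and 1.92 in both mutant libraries, so relative to H4 it was not lower. These families also consist of near-identical copies, and the ratios were not tested.

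**Figure D1:**
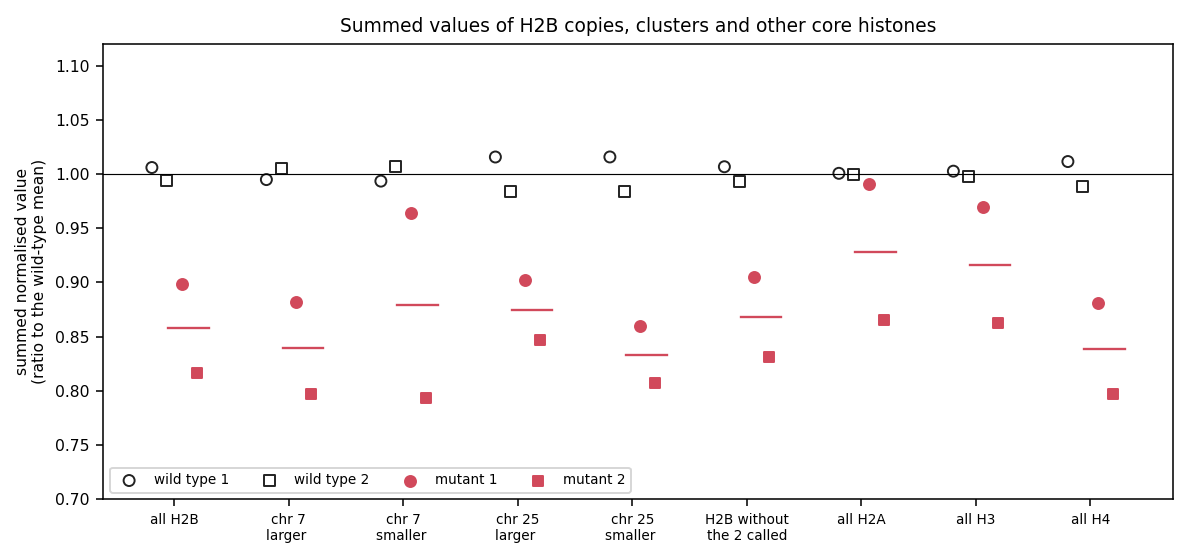
Summed normalised value in each library, divided by the wild-type mean, for all H2B copies, for 4 genomic clusters of them, for H2B without the 2 copies that passed the test, and for the other core histones. Open black symbols are wild type, filled red symbols are mutants, circles are replicate 1, squares are replicate 2, and red lines are mutant means; the axis starts at 0.7. In every H2B set drawn both mutants lie below both wild-type libraries.

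Gene by gene, most copies were a little lower in mutants and 2 copies were lower by far more. The fit was limma-trend on log2(value + 1) over the 16653 genes whose mean value reached 10, with Benjamini-Hochberg adjustment over all of them, and a gene passed at an adjusted p under 0.05. All 34 copies were tested. 2 of them fell and 0 rose. Of all genes tested, 0.048% passed in either direction, 0.042% as lower and 0.006% as higher. At an unadjusted p under 0.05, 14 copies were lower and 0 higher, against 1.91% and 1.84% of all genes tested. Among the 5244 genes whose mean value reached 200, 143 were lower and 16 higher, so higher genes were rare at that level.

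Of the 34 copies, 29 had a log2 fold change below 0 (52.7% of all genes tested, and 71.7% of those whose mean value reached 200, as it did for 33 copies). In 24 copies, or 70.6%, both mutant libraries lay below both wild-type libraries, and in 2 copies both lay above. Over all genes tested these shares were 16.1% and 13.3%, and among genes whose mean value reached 200 they were 24.0% and 5.02%. In mutant replicate 1 alone, 24 copies were below both wild-type libraries and 4 were above both. Among genes whose mean value reached 200 these shares were 28.6% and 37.9%. The share of copies lower in mutants was above the background with and without the library that stood apart. The share higher was near or below it, and in mutant replicate 2 alone 30 copies were below both wild-type libraries, where 70.3% of genes at that level were.

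The median log2 fold change was -0.24 for the H2B copies, -0.02 in the whole table tested and -0.07 in the genes of that level. Taken separately against wild type, mutant replicate 1 had an H2B median of -0.18 and mutant replicate 2 one of -0.28, where genes of that level had medians of 0.02 and -0.16. The median size of the log2 difference between the groups was 0.25, against 0.093 between the wild-type libraries and 0.15 between the mutant libraries. In 19 copies the difference between groups was larger than that within either group. The share of all genes for which this held was not computed, so this count has no background beside it.

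**Figure D2:**
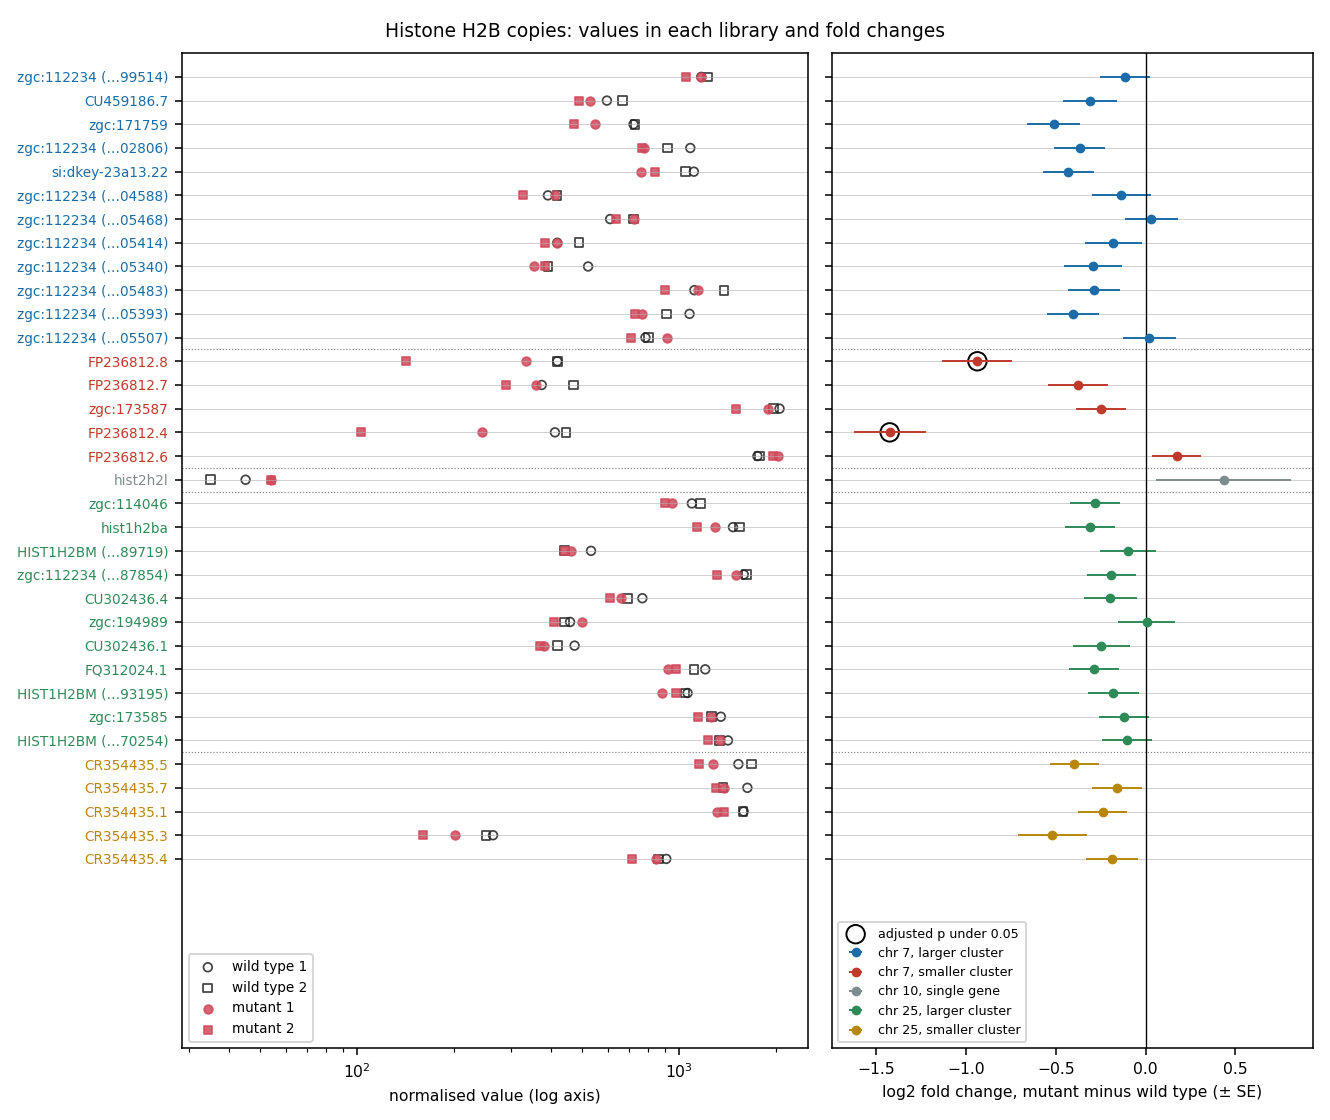
Left, the normalised value of each of the 34 H2B copies in each library on a log axis, ordered along the chromosomes; right, the log2 fold change of mutants against wild type with its standard error from limma. Label and point colours mark the genomic cluster, numbers after a shared symbol are the last digits of the gene identifier, and rings mark the 2 copies with an adjusted p under 0.05, FP236812.4 and FP236812.8.

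By position the copies fell into 4 clusters and 1 single gene, when neighbours at most 500 kb apart were joined (coordinates are those of the deposited table, for which the submitters' processing notes name GRCz10). A larger cluster on chromosome 7, from 5784680 to 6330302, held 12 copies, and a smaller one at the other end of the chromosome, from 73590418 to 73636124, held 5. On chromosome 25 a larger cluster from 34509159 to 34640962 held 11 copies and a smaller one from 35766561 to 35820573 held 5. The last copy, hist2h2l, lay alone on chromosome 10 from 29929304 to 29930127. The nearest H2A gene lay on the same strand for 28 of the 34 copies. Over all 34 the median distance between the gene starts was 2722.5 bases. hist2h2l was the closest to its neighbour, head to head with an H2A gene whose start was 214 bases away.

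In all 4 clusters the mutants lay below wild type without overlap. The larger chromosome 7 cluster summed to 9594 and 9693 against 8506 and 7687, a log2 ratio of -0.25. The smaller one summed to 4999 and 5065 against 4851 and 3994, a log2 ratio of -0.19. The larger chromosome 25 cluster summed to 11406 and 11054 against 10134 and 9507, a log2 ratio of -0.19. The smaller one summed to 5912 and 5729 against 5005 and 4697, a log2 ratio of -0.26. Mutant replicate 1 was closest to wild type in the smaller cluster of chromosome 7, where the ratio without mutant replicate 2 was -0.053. With any 1 cluster left out, the ratio of the remaining H2B sum lay between -0.24 and -0.21.

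The share of each cluster in the summed H2B value was similar in all libraries. The larger chromosome 25 cluster supplied 35.0% to 36.7% of the H2B sum, the larger chromosome 7 cluster 29.6% to 30.7%, the smaller chromosome 25 cluster 17.5% to 18.5% and the smaller chromosome 7 cluster 15.4% to 17.0%. hist2h2l supplied 0.111% to 0.208%.

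Within the larger chromosome 7 cluster the copies were not alike. With a distance of at most 50 kb it split into 3 groups. The first 5 copies summed to 4679 and 4585 against 3780 and 3615, a log2 ratio of -0.33, and each of the 5 was lower in mutants without overlap. Of all genes tested 16.1% were lower in this way, and of those whose mean value reached 200, 24.0%. The next 3 copies summed to 1419 and 1626 against 1549 and 1348, so the groups overlapped, with a log2 ratio of -0.072. The last 4 summed to 3496 and 3482 against 3177 and 2724, a log2 ratio of -0.24. The differences between these groups were not tested.

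2 copies of the first group are named here after their values were seen, and neither passed the test. zgc:171759 (5833513 to 5834381, plus strand) stood at 721 and 729 against 547 and 472, a log2 fold change of -0.51 ± 0.15 (SE) with a limma adjusted p of 0.597, and it passed without mutant replicate 1. si:dkey-23a13.22 (5856060 to 5857076, plus strand) stood at 1110 and 1045 against 759 and 840, a log2 fold change of -0.43 ± 0.14 with a limma adjusted p of 0.947. Here mutant replicate 1 was the lower mutant library, and si:dkey-23a13.22 passed without mutant replicate 2.

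The 10 zgc:112234 genes, 9 of them in this cluster and 1 on chromosome 25, had mean values from 387 to 1503.5 and log2 fold changes from -0.40 to 0.03. In 6 of them the mutants lay below wild type without overlap. Among all genes tested the share was 16.1%, and among those whose mean value reached 200 it was 24.0%. ENSDARG00000105468, among the 3 highest fold changes of all copies, stood at 610 and 721 against 721 and 638, a log2 fold change of 0.03 ± 0.15. ENSDARG00000099514, the most abundant copy of the cluster, stood at 1170 and 1226 against 1168 and 1046. Its mutants did not overlap wild type, but mutant replicate 1 was 2 units below it.

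In the larger chromosome 25 cluster, ENSDARG00000087854 stood at 1586 and 1616 against 1498 and 1314. hist1h2ba stood at 1468 and 1538 against 1293 and 1137, and ENSDARG00000070254 at 1416 and 1333 against 1336 and 1225. The log2 fold changes were -0.19 ± 0.14, -0.31 ± 0.14 and -0.10 ± 0.14, and none of the 3 passed the test. The groups overlapped in the last of them. zgc:173585 stood at 1346 and 1262 against 1252 and 1146, a log2 fold change of -0.12 ± 0.14.

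In the smaller chromosome 25 cluster, CR354435.5 stood at 1526 and 1673 against 1276 and 1153, a log2 fold change of -0.40 ± 0.14. CR354435.1 stood at 1584 and 1577 against 1307 and 1372, a log2 fold change of -0.24 ± 0.14, and CR354435.7 at 1627 and 1368 against 1376 and 1298, a log2 fold change of -0.16 ± 0.14. None of these copies passed the test. The mutants were the lower libraries without overlap in CR354435.5 and CR354435.1, while in CR354435.7 wild-type replicate 2 was below mutant replicate 1. CR354435.5 and CR354435.7 each overlap a gene labelled zgc:173552, so their values are less certain. CR354435.3, the copy with the lowest value of this cluster, stood at 264 and 251 against 201 and 160. Its log2 fold change of -0.52 ± 0.19 was the lowest among the 32 copies that did not pass, with a limma adjusted p of 1.

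Together the 10 copies of the highest mean value made up 49.5% of the summed H2B value. This share depends on how reads that match several copies were counted, which is not given. 7 of the 10 copies were lower in mutants without overlap, and their log2 fold changes ran from -0.40 to 0.17. For all genes tested the share lower was 16.1%, and for those whose mean value reached 200 it was 24.0%. The medians of the H2B copies were similar by strand and by gene span. The median was -0.24 for 16 copies on the plus strand and -0.22 for 18 on the minus strand. It was -0.22 for the 12 gene models of at most 400 bases and -0.26 for the 22 longer ones. The counts lower without overlap, beside the shares of 16.1% and 24.0% given above, were less alike. They were 13 of the 16 plus-strand and 11 of the 18 minus-strand copies, and 10 of the 12 short and 14 of the 22 longer models. These differences were not tested.

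The smaller cluster of chromosome 7 held both copies that passed the test and the most abundant copy that was higher in mutants. FP236812.4 (ENSDARG00000086751, chromosome 7, 73627742 to 73628116, minus strand) stood at 411 and 445 against 244 and 103. Both mutant libraries were low, and mutant replicate 2, at 24.1% of the wild-type mean, was the lower by far. It fell by 1.43 ± 0.20 on the log2 scale (SE, limma adjusted p 1.62e-06). It passed without mutant replicate 2 as well, at -0.81 with a limma adjusted p of 0.00805, and without mutant replicate 1 it stood at -2.04.

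FP236812.8 (ENSDARG00000104554, chromosome 7, 73590418 to 73590792, minus strand) stood at 418 in both wild-type libraries and at 334 and 142 in mutants, 79.9% and 34.0% of the wild-type mean. It fell by 0.94 ± 0.19 on the log2 scale (SE, limma adjusted p 0.0135; range over all alternatives 2.81e-12 to 1). Without mutant replicate 2 the value was -0.32 and the call was lost, without mutant replicate 1 it was -1.55, and the call was also lost without either wild-type library, at limma adjusted p-values of 0.511 and 0.417. It was lost as well with 10 as pseudocount (-0.90), under limma-voom (-0.84) and under quantile normalization (-0.89).

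These 2 copies differed from all others in how far the mutant libraries lay apart. Mutant replicate 2 held 42.2% of the value of mutant replicate 1 for FP236812.4 and 42.5% for FP236812.8. In the other 32 copies it held 77.2% to 111%, with a median of 91.8%. The limma standard errors are set mostly by genes of similar value and not by the spread of these copies. Among the 12 gene models of at most 400 bases, levels can be set side by side per length. By the mean over all 4 libraries these 2 copies were the lowest, at 80.2 and 87.5 per 100 bases. The others ran from 109 to 401 per 100 bases. These means include the fall in mutants. In wild type alone, the mean value was 428 for FP236812.4 and 418 for FP236812.8. It was 446 for CU302436.1, a gene model of the same span and the lowest of the others. In wild type the 2 copies were thus close to that copy. Reads shared between near-identical copies may have been counted for neither, so these levels are uncertain.

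FP236812.6 (ENSDARG00000103722, 73635711 to 73636124, plus strand), the copy with the highest mean value of all 34, stood at 1748 and 1775 against 2022 and 1954. Both mutant libraries were higher and close to each other, and the log2 fold change was 0.17 ± 0.14, with a limma adjusted p of 1. The only other copy higher in mutants without overlap was hist2h2l, at 45 and 35 in wild type and 54 in both mutants, a log2 fold change of 0.43 ± 0.38 from low values. zgc:173587 (73604641 to 73606060, plus strand), second in mean value, stood at 2048 and 1957 against 1891 and 1505, a log2 fold change of -0.25 ± 0.14.

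As a share of the H2B sum, FP236812.4 took 1.29% and 1.41% against 0.855% and 0.397%. FP236812.8 took 1.31% and 1.32% against 1.17% and 0.547%, while FP236812.6 took 5.47% and 5.62% against 7.08% and 7.53%. The shares of the first 2 were thus lower, and that of the last higher, in both mutant libraries. Summed, these 3 copies stood at 2577 and 2638 against 2600 and 2199, so that mutant replicate 1 lay between the wild-type libraries and mutant replicate 2 below them. The 3 copies share the description Histone H2B 1/2 and lie in 1 cluster, and the part of read assignment between them was not tested.

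**Figure D3:**
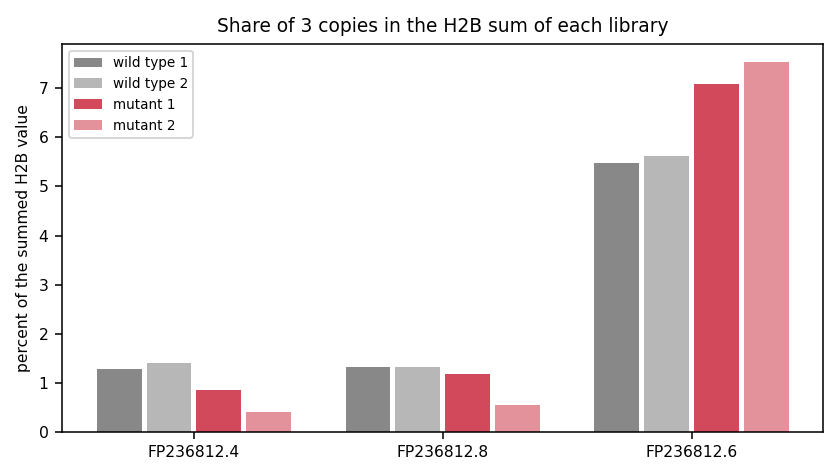
Percent of the summed H2B value taken by FP236812.4, FP236812.8 and FP236812.6 in each library, with grey bars for wild type and red bars for mutants. The first 2 copies take less, and FP236812.6 takes more, in both mutant libraries.

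Without the 2 copies that passed, the H2B sum stood at 31127 and 30713 against 27972 and 25694, a log2 ratio of -0.20, so most of the difference in the sum lay in the other copies. In the smaller chromosome 7 cluster itself, the 3 other copies summed to 4170 and 4202 against 4273 and 3749, and the groups overlapped.

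Some neighbours of the 2 copies, described after their values were seen, were also low in mutant replicate 2 and others were not. The next gene to FP236812.8 is an H4 copy (hist1h4l, ENSDARG00000101114), which stood at 625 and 466 against 451 and 243. The one after it is an H3 copy (zgc:173552, ENSDARG00000091770), at 646 and 680 against 560 and 349. Their log2 fold changes were -0.70 ± 0.17 and -0.58 ± 0.16, with limma adjusted p-values of 0.199 and 0.524. The H4 copy next to FP236812.4 (hist1h4l, ENSDARG00000088420) stood at 283 and 282 against 228 and 132, a log2 fold change of -0.70 ± 0.20 with a limma adjusted p of 0.559. Mutant replicate 2 was thus at 44.5%, 52.6% and 46.7% of the wild-type mean in these 3 genes, which did not pass the test. The H3 copy beyond that H4 gene (zgc:173552, ENSDARG00000091525) stood at 284 and 330 against 334 and 306, with mutant replicate 2 at 99.7% of the wild-type mean. On the other side of FP236812.4, zgc:163061 (ENSDARG00000075538) stood at 400 and 336 against 313 and 283, or 76.9% in mutant replicate 2.

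Also lower without overlap were an H4 copy (hist1h4l, ENSDARG00000086555), at 860 and 778 against 716 and 470, and an H3 copy (zgc:173552, ENSDARG00000086709), at 548 and 512 against 337 and 380. The first was the lower in mutant replicate 2 and the second in mutant replicate 1. The H2B copy FP236812.7, at 374 and 470 against 360 and 290, was lower without overlap as well. So was FP236812.3, described as an uncharacterized protein, at 187 and 158 against 137 and 109. In the middle of the cluster an H3 copy (zgc:173552, ENSDARG00000104087), at 372 and 517 against 440 and 451, and an H4 copy (hist1h4l, ENSDARG00000075366), at 591 and 688 against 537 and 644, overlapped between the groups.

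Across the cluster, 4 of 5 H2B copies, 3 of 4 H4 copies and 2 of 4 H3 copies were lower in mutants without overlap. This held for 16.1% of all genes tested and 24.0% of those whose mean value reached 200. None of the 3 copies described as H2A was lower or higher without overlap, and their log2 fold changes lay between -0.05 and 0.09. The H2A copies in the interval summed to 1945 and 1908 against 1990 and 1951, higher in mutants by a log2 ratio of 0.033. The H3 copies summed to 1850 and 2039 against 1671 and 1486, and the H4 copies to 2359 and 2214 against 1932 and 1489. In the larger chromosome 7 cluster the same sums had log2 ratios of -0.16 for H2A, -0.21 for H3 and -0.24 for H4, beside -0.25 for H2B. In the larger chromosome 25 cluster they were -0.12, -0.093 and -0.21, beside -0.19 for H2B. In the smaller chromosome 25 cluster they were -0.13, 0.093 and -0.21, beside -0.26 for H2B. The H3 copies there summed to 871 and 960 against 1088 and 865, and the groups overlapped.

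**Figure D4:**
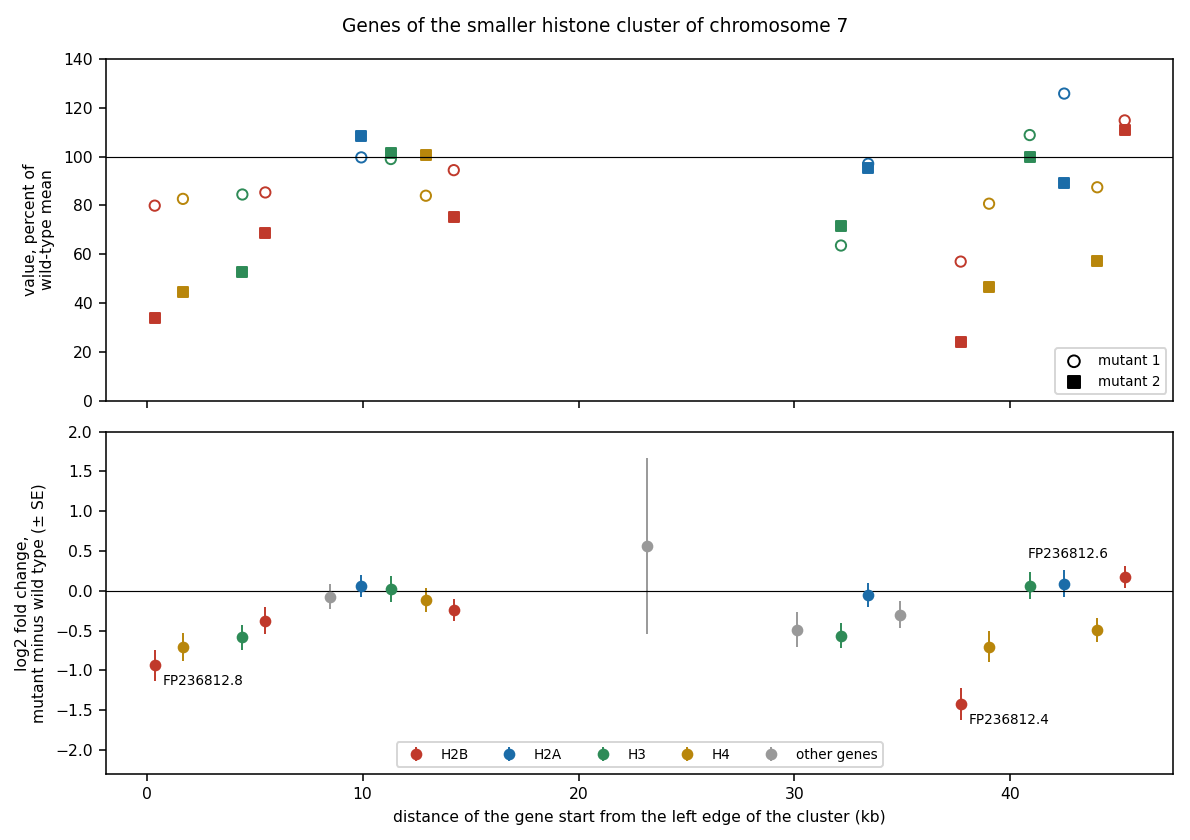
Genes of the smaller histone cluster of chromosome 7 by the distance of their start from the left edge of the cluster in kb. The upper panel gives the histone genes in mutant 1 (open circles) and mutant 2 (filled squares) as percent of the wild-type mean, and the lower panel the log2 fold change with its standard error for all genes, coloured by histone family. FP236812.4 and FP236812.8 lie lowest in mutant 2 and by log2 fold change, with 2 H4 copies and 1 H3 copy at 44.5% to 52.6% in mutant 2, while the H2A copies lie between 89.3% and 126% in both mutants.

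4 lists of genes that make, carry or modify H2B, or that act in S phase, were examined in the same fit. No member passed limma or limma-voom in any of them (0 by both). The genes of histone transcription and 3 prime end formation, such as npat, a coactivator of S-phase histone transcription, and slbp, which binds the stem-loop of histone mRNA, gave 0 of 14 tested members at an adjusted p under 0.05 and 0 at an unadjusted p under 0.05. Their median log2 fold change was -0.08. Without overlap 3 of the 14 were lower and 1 higher, beside 16.1% and 13.3% of all genes tested. Among genes whose mean value reached 200 these shares were 24.0% and 5.02%. slbp stood at 1081 and 1042 against 1027 and 1002, and npat at 245 and 362 against 267 and 295 (both chosen for their role). The 2 genes of the smallest p were sympk, a scaffold of the 3 prime processing complex (-0.24 ± 0.15), and upf1, a helicase that takes part in histone mRNA decay (-0.17 ± 0.14).

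The H2A-H2B chaperones and import factors gave 0 of 10 at either threshold, with a median of -0.03. Of the 10, 1 was lower and 0 higher without overlap, beside 16.1% and 13.3% of all genes tested. ssrp1b, a copy of a FACT subunit, stood at 11 and 9 against 9 and 55, high in mutant replicate 2 alone. nap1l4a, a nucleosome assembly protein, stood at 558 and 541 against 531 and 453. The H2B ubiquitylation genes gave 0 of 8 at either threshold, with a median of -0.07. Without overlap 4 of the 8 were lower and 0 higher. All genes tested gave 16.1% and 13.3%, and those whose mean value reached 200 gave 24.0% and 5.02%. The 4 lower genes were ube2a, waca, usp22 and usp49, the last 2 being deubiquitylases named after their values were seen. The smallest p-values belonged to ube2a, a ubiquitin-conjugating enzyme for H2B (-0.30 ± 0.22), and to waca, the gene found for wac, a partner of the Rnf20-Rnf40 ligase (-0.17 ± 0.14).

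The S-phase genes, among them pcna and the mcm helicase subunits, gave 0 of 19 at an adjusted p under 0.05 and 1 higher at an unadjusted p under 0.05. Their median log2 fold change was -0.07, beside -0.24 for the H2B copies and -0.07 for the genes whose mean value reached 200. Without overlap 4 of the 19 were lower and 1 higher, beside 16.1% and 13.3% of all genes tested. Among genes whose mean value reached 200 these shares were 24.0% and 5.02%. The 1 higher gene was a copy of rrm2 (ENSDARG00000078069), a ribonucleotide reductase subunit, at 91 and 98 against 163 and 137, a log2 fold change of 0.66 ± 0.24 with a limma adjusted p of 1. The second rrm2 copy (ENSDARG00000020711) stood at 276 and 296 against 274 and 186, a log2 fold change of -0.34 ± 0.18. For pcna, the sliding clamp of DNA replication, the values were 3073 and 2960 against 3235 and 2516, so that the mutant libraries lay on both sides of wild type.

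The other histone families, tested gene by gene in the same fit, gave 0 of 36 H2A, 0 of 31 H3 and 0 of 32 H4 copies at an adjusted p under 0.05 with limma, and 0 with limma-voom. At an unadjusted p under 0.05 limma gave 3, 4 and 14 lower and 0 higher, where 1.91% and 1.84% of all genes tested were. Both mutants lay below both wild-type libraries in 18 of 36 H2A, 18 of 31 H3 and 24 of 32 H4 copies, beside 24 of 34 for H2B. The share was 16.1% of all genes tested and 24.0% of those whose mean value reached 200. The medians were -0.11, -0.14 and -0.26. The 1 gene described as histone H1 had a log2 fold change of -0.08. Whether the families differ from each other was not tested.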

How the data were processed

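RNA-seq of 4 libraries was used as deposited, in 1 table of 24235 Ensembl genes. Its values are a score: gene counts that the authors scaled by 1 factor per library and rounded, as skipped and doubled whole numbers in the deposited values show. Raw counts were not recovered from the rounded values, so no count model was the main test. Per the labels' protocols, 10 ng of total RNA went into a stranded pico-input kit and reads were single, of 75 bases. STAR 2.4.0a, featureCounts 1.4.5-p1 and DESeq2 were named, without settings, per the submitters' processing notes, so the strand setting and the treatment of reads that match several copies are not given in the sources used here. Near-identical copies, and the 4 H2B genes that overlap another gene, are therefore uncertain. Among these 4 are zgc:173587, CR354435.5 and CR354435.7.

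Values were fitted as log2(value + 1) with limma 3.58.1 (R 4.3.3, trend, group as the only term) over genes with a mean of at least 10. The prior had 83.6 degrees of freedom, so standard errors follow the trend over genes of similar value. Fold changes on this scale understate those of low genes. The code was tested on simulated data. In fits without 1 library, the variance prior came from genes not tied in the remaining pair, and the lone library was assumed to vary like the other group. Python 3.11.15, pandas 2.3.3 and Matplotlib 3.10.9 were used.

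Members and lists were chosen with earlier results of these data known. Named were the copies past the test, the 10 of highest mean, the 3 highest and 3 lowest fold changes, and from each list the members past the test or the 2 of smallest p; others were named after their values were seen, as stated. 20 of the 34 copies had a current symbol in the gene name table.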

Additional observations from a re-analysis of the deposited data

How the results depend on the processing

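The count of H2B copies past the test was 1 under limma-voom, under quantile normalization and with 10 as pseudocount, and 1 to 8 without single libraries (8 without mutant replicate 1, where 277 of all genes passed; 2 without mutant replicate 2, FP236812.4 and si:dkey-23a13.22). It was 2 with the replicate block. Over all genes tested, deviations of same-numbered libraries correlated at 0.00896. Noise in genes of low value can hide a shared effect, so this does not settle whether the libraries were paired. FP236812.4 passed in all 12 alternatives. FP236812.8 passed in 6 of 12 and lost its call at -0.90 (pseudocount of 10, adjusted p 0.068), -0.84 (limma-voom, 0.131) and -0.89 (quantile normalization, 0.679), and ran from -1.55 to -0.32 without single libraries; the cause was not tested. zgc:173587, hist1h2ba, CR354435.5, zgc:171759, ENSDARG00000105393 and ENSDARG00000105483 passed only without mutant replicate 1 among the alternatives run. Without single libraries the log2 ratio of the H2B sum ran from -0.29 to -0.15, and those of the clusters from -0.33 to -0.18 (larger, chromosome 7), -0.33 to -0.053 (smaller), -0.24 to -0.15 (larger, chromosome 25), -0.31 to -0.22 (smaller) and 0.26 to 0.63 (hist2h2l). Scaled to equal totals without mitochondrial and ribosomal RNA genes, the H2B sum stood at -0.17 and the chromosome 25 clusters at -0.14 and -0.21. Joined within 50 kb, the middle 3 copies of the larger chromosome 7 cluster stood at -0.072. Counts without overlap, repeated after seeing the data and each with the share of genes of mean 200 or more, were 26 and 27 lower without wild-type replicate 1 or 2 (40.1% and 41.6%), 30 without mutant replicate 1 (70.3%), 24 without mutant replicate 2 (28.6%) and 21 with equal totals (19.8%). Higher were 2 to 4 without single libraries (8.54% to 37.9%). A search for h2b in symbols added 10 genes, 0 of them histones, and was not run further. The number of libraries, and copies that share reads, limit the precision.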
